A study of Homo sapiens with 24 samples.

Results

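The genes described here are 10 regulators of the G1 phase of the cell cycle, out of 19692 entries measured in the series. They are the D-type cyclins CCND1, CCND2 and CCND3, the E-type cyclins CCNE1 and CCNE2, the kinases CDK4 and CDK6 that D-type cyclins activate, and the CDK inhibitors CDKN1B, CDKN1C and CDKN2C. They were taken by gene symbol, as G1 cyclins, their kinases and the CDK inhibitors other than p21. CDKN1B had drawn attention because its label was lost among the fastest in these same libraries, so its label loss is given below as a description with no test. Of the 10 genes, 8 had enough reads to be tested.

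D-type cyclins rise with growth signals and activate CDK4 and CDK6, which begin to phosphorylate the retinoblastoma protein RB. Cyclin E with CDK2 completes that step, which frees E2F factors to switch on the genes of S phase. INK4 inhibitors such as CDKN2C (p18) block CDK4 and CDK6, while the CIP/KIP inhibitors CDKN1B (p27) and CDKN1C (p57) mainly restrain CDK2 complexes. Several of these regulators are made and destroyed quickly, through both their mRNA and their protein, which lets a cell stop or enter the cycle within a short time.

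The libraries came from HEK293 cells, a long-established line of human embryonic kidney origin that carries adenoviral DNA, whose early proteins bind RB and p53. A line that overexpresses the CCCH zinc finger protein ZC3H7B (ZC3H7B-OE) was set against a line that overexpresses Flag/HA (control). Both lines received 100 µM 4-thiouridine, a uridine analogue that new RNA takes up, together with 1 µg/mL doxycycline for 24 h, and then a chase with 10 mM uridine. Poly(A) RNA was collected at 0, 2, 4 and 6 h of chase, with 3 libraries per line and time and 24 in all. Alkylation makes the analogue read as C, so T>C conversions mark reads of RNA that took up the analogue. Such reads are called labelled here, and how many conversions they needed is not given in the sources used here. The labels do not give the promoter of either construct, whether either line is 1 clone, or whether replicates were grown apart. The p-values therefore rest on a spread between libraries that could be technical.

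Depth per library was between 1502068 and 3676254 reads, with 830574 to 1579744 labelled reads among them. Depth went with the chase. Libraries at 0 and 2 h had at most 2053311 reads, and those at 4 and 6 h had at least 2480380. ZC3H7B itself averaged 328 ± 75.0 CPM in ZC3H7B-OE and 269 ± 74.0 CPM in control (SD over 12 libraries each), a log2 difference of 0.28 (SE 0.08, adjusted p = 0.00347). The spreads overlapped, so these counts show little of the overexpression that names the line. Whether the counted region takes in the construct is not given in the sources used here. CPM are read counts brought to a common library size with TMM factors. Replicate 3 of control at 0 h stood apart, with a TMM factor of 0.726 against 0.926 to 1.08 in the others and 11032 entries with a read against 12005 to 13201. Calls that change without it, and called chase or line differences that move clearly, are given also without it. Of 10 genes listed as marks of HEK293, LIN28B averaged 193 and IGF2BP1 580 CPM in ZC3H7B-OE and 338 and 536 CPM in control. KRT8 averaged 11.8 and KRT18 10.5 CPM in ZC3H7B-OE, and 15.9 and 8.85 CPM in control. VIM averaged 3.97 CPM in ZC3H7B-OE and 3.57 CPM in control, and PAX2, PAX8, NEFM and HMGA2 averaged below 1 CPM in both lines. Of 5 leukocyte marks PTPRC and CD3E had no read, while CD68 averaged 85.2 CPM in ZC3H7B-OE and 80.4 CPM in control, FCER1G 5.34 CPM in ZC3H7B-OE and 4.36 CPM in control, and CD79A 3.66 CPM in ZC3H7B-OE and 2.02 CPM in control. Their sum ran from 59.9 to 131 CPM in ZC3H7B-OE and from 44.7 to 273 CPM in control. Of 5 fibroblast marks COL1A2 and DCN had no read in any library, and their sum was at most 6.35 CPM in ZC3H7B-OE and 6.12 CPM in control. Of 5 epithelial marks KRT10 averaged 152 CPM in ZC3H7B-OE and 179 CPM in control, and EPCAM 19.9 and 30.6 CPM in the same order. CDH1, KRT19 and KRT5 averaged below 1 CPM in both. Among proliferation marks MKI67 averaged 291 CPM in ZC3H7B-OE and 177 CPM in control. The others were lower in ZC3H7B-OE or near 0. CDK1 averaged 149 CPM in ZC3H7B-OE and 214 CPM in control. TOP2A averaged 150 and 176 CPM, and PCNA 252 and 296 CPM, in the same order. CCNB1 was below 1 CPM in both. The sum of the 5 proliferation marks ran from 523 to 1147 CPM in ZC3H7B-OE and from 505 to 1312 CPM in control, and its part in the results was not tested. In bulk RNA a lower level of a cell cycle gene cannot be told apart from fewer cells in the phase that makes it.

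Between the lines, CCND1, CCNE2 and CDK6 were lower in ZC3H7B-OE, and CCND3, CCNE1, CDK4, CDKN1B and CDKN2C did not pass the test. Averaged over the 4 times, CCND1 was 1.91-fold, CCNE2 2.00-fold and CDK6 1.83-fold lower. That is 3 of 8 genes called at an adjusted p under 0.05, beside 45.8% of all 10038 entries tested, so the share among these genes does not exceed the background. None of the 8 was called higher, beside 20.4% of all entries, and 3 were called lower, beside 25.4%. The median log2 difference of the 8 was -0.11, and that of all entries was 0.01. Their levels by library and the differences with their errors are plotted below.

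**Figure D1:**
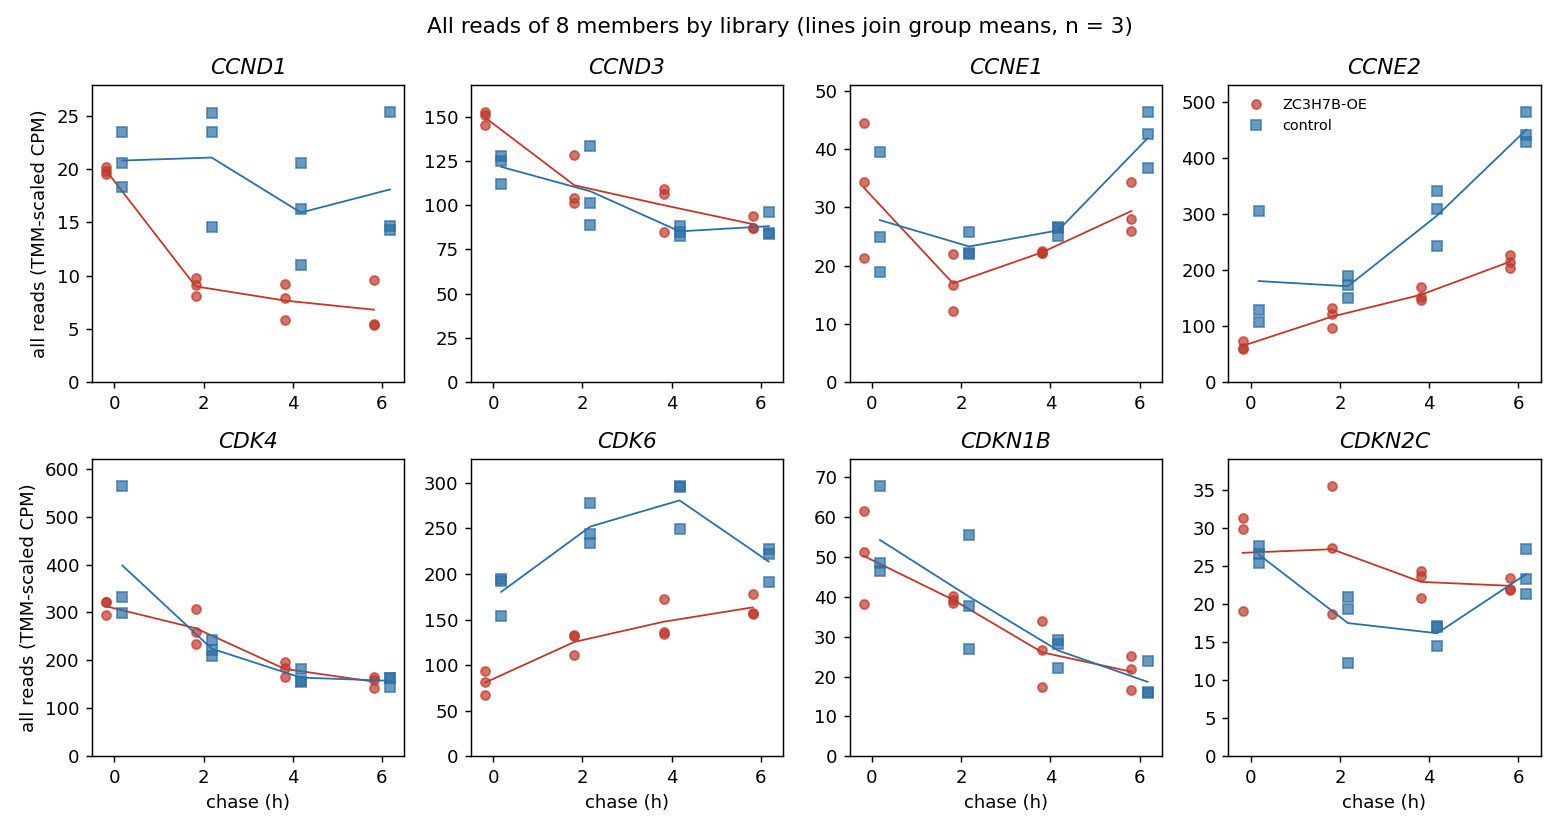
All reads (TMM-scaled CPM, linear axes from 0) of the 8 tested genes against hours of chase, with each point 1 library and lines through the means of 3 libraries. Every ZC3H7B-OE library lies below every control library for CCND1 at 2, 4 and 6 h, and for CCNE2 and CDK6 at all 4 times.

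**Figure D2:**
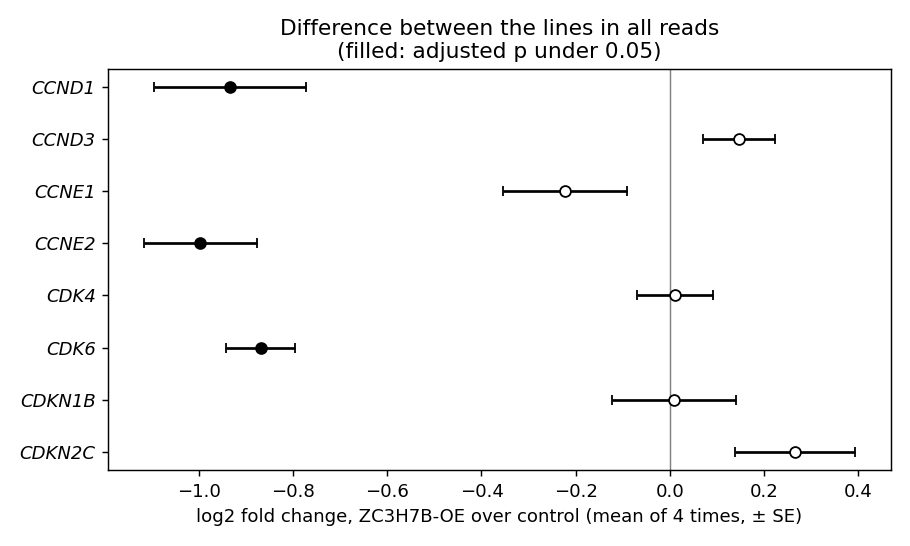
Log2 fold change of all reads, ZC3H7B-OE over control, as the mean of 4 times with its standard error. CCND1, CCNE2 and CDK6 lie between -0.997 and -0.87, and the other 5 genes lie between -0.22 and 0.27.

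CCND1 encodes cyclin D1, the D-type cyclin most directly tied to growth factor signals. At 0 h it stood at 19.5, 19.8 and 20.2 CPM in ZC3H7B-OE and at 23.5, 20.6 and 18.3 CPM in control, and the groups overlapped. At 2 h the values were 9.76, 9.10 and 8.14 CPM in ZC3H7B-OE and 23.4, 25.3 and 14.5 CPM in control. At 6 h they were 5.35, 9.59 and 5.48 CPM in ZC3H7B-OE and 25.4, 14.7 and 14.3 CPM in control. From 2 h onwards all 3 ZC3H7B-OE libraries were thus below all 3 control libraries. The difference over the 4 times was -0.93 (SE 0.16, adjusted p = 1.50e-05). Single times were compared as an alternative added after the data were seen. The difference of CCND1 was -0.08, -1.23, -1.04 and -1.39 along the 4 times, with adjusted p of 0.870, 0.0159, 0.0223 and 0.00274. Of the 8 genes 2, 2, 3 and 2 were called lower in turn, beside 19.5%, 7.27%, 10.8% and 9.25% of all entries, and 0 were called higher, beside 11.7%, 2.19%, 6.85% and 6.52%. In both directions together 31.2%, 9.46%, 17.7% and 15.8% of entries were called. Counts of CCND1 were low, between 15 and 41 reads per library in ZC3H7B-OE.

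CDK6, one of the kinases that D-type cyclins activate, was lower in every ZC3H7B-OE library than in any control library of the same time, and passed the test at 0, 2 and 4 h but not at 6 h. It had 93.5, 67.6 and 81.5 CPM in ZC3H7B-OE at 0 h, against 154, 192 and 194 CPM in control. At 4 h it had 173, 134 and 136 CPM in ZC3H7B-OE, against 297, 296 and 250 CPM in control. At 6 h the lines had come closer, with 178, 156 and 157 CPM in ZC3H7B-OE and 191, 227 and 222 CPM in control, still without overlap. The mean difference was -0.87 (SE 0.07, adjusted p = 2.14e-11). Along the 4 times the difference was -1.16, -1.01, -0.93 and -0.39, with adjusted p of 7.65e-07, 1.69e-05, 3.07e-05 and 0.0628.

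CDK4, the other such kinase, showed no difference past the test. It averaged 313 ± 16.4, 267 ± 36.3, 182 ± 15.3 and 156 ± 11.8 CPM at 0, 2, 4 and 6 h in ZC3H7B-OE and 398 ± 145, 225 ± 17.4, 164 ± 14.9 and 157 ± 10.9 CPM in control (SD, n = 3). The mean difference was 0.01 (SE 0.08, adjusted p = 0.926). The wide spread of control at 0 h came from replicate 3 at 564 CPM beside 332 and 299 CPM. CCND3, cyclin D3, averaged 149 ± 3.95, 111 ± 15.1, 100.0 ± 13.4 and 89.3 ± 3.96 CPM in ZC3H7B-OE and 122 ± 8.54, 108 ± 23.2, 85.2 ± 2.85 and 88.1 ± 6.92 CPM in control. Its 3 ZC3H7B-OE libraries at 0 h, 145 to 153 CPM, lay above the 112 to 128 CPM of control, but at the later times the groups overlapped, and the mean difference of 0.15 did not pass (SE 0.08, adjusted p = 0.121).

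CCNE2, which encodes cyclin E2, a partner of CDK2, was lower in ZC3H7B-OE and climbed with the chase in both lines. At 0 h it had 61.5, 73.9 and 58.9 CPM in ZC3H7B-OE, against 129, 107 and 304 CPM in control. At 6 h it had 204, 227 and 214 CPM in ZC3H7B-OE, against 481, 428 and 439 CPM in control. The groups did not overlap at any of the 4 times. The mean difference was -0.997 (SE 0.12, adjusted p = 2.55e-07), and -0.86 without replicate 3 of control at 0 h. Along the 4 times it was -1.44, -0.55, -0.93 and -1.07, with adjusted p of 0.000127, 0.175, 0.00663 and 0.00257. CCNE1, the other cyclin E, had 21.3, 34.3 and 44.5 CPM at 0 h in ZC3H7B-OE and 25.0, 19.0 and 39.4 CPM in control, with groups that overlapped. At 6 h it had 25.9, 27.9 and 34.3 CPM in ZC3H7B-OE and 46.3, 36.7 and 42.5 CPM in control, with groups that did not overlap. Its mean difference of -0.22 did not pass (SE 0.13, adjusted p = 0.167), nor did that at 6 h alone (-0.51, adjusted p = 0.147).

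The inhibitors did not differ past the test. CDKN1B had 61.5, 51.2 and 38.1 CPM at 0 h in ZC3H7B-OE and 48.5, 46.6 and 67.9 CPM in control, and 16.6, 25.1 and 21.9 CPM at 6 h in ZC3H7B-OE and 24.0, 16.1 and 16.0 CPM in control. The groups overlapped at all 4 times, and the mean difference was 0.01 (SE 0.13, adjusted p = 0.964). CDKN2C averaged 26.8 ± 6.72, 27.3 ± 8.43, 23.0 ± 1.91 and 22.4 ± 0.846 CPM in ZC3H7B-OE and 26.6 ± 1.09, 17.5 ± 4.67, 16.2 ± 1.51 and 24.0 ± 2.97 CPM in control. Only at 4 h were its groups apart, higher in ZC3H7B-OE, and the mean difference was 0.27 (SE 0.13, adjusted p = 0.0875). CDKN1C, with 18 reads over the 12 ZC3H7B-OE libraries and 22 over the 12 control libraries, and CCND2, with 12 reads in ZC3H7B-OE and 21 in control, were too sparse to compare.

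Along the chase these genes moved in opposite directions: levels of CDK4 and CCND3 fell in both lines while CCNE2 rose in both. Setting CDKN1B aside, 5 of 7 genes changed between 0 and 6 h in ZC3H7B-OE, 2 higher and 3 lower, beside 63.4% of all entries (32.8% higher, 30.6% lower). In control 4 of 7 changed, 2 higher and 2 lower, beside 60.6% of all entries (30.7% higher, 29.9% lower). CDKN1B, chosen for its loss of label over the same chase, is given with no test and had a log2 change of -1.24 (SE 0.26) in ZC3H7B-OE and -1.52 (SE 0.27) in control. The chase is confounded with time since the medium change, with time since the end of labelling and with depth, and these cannot be told apart.

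CDK4 fell by 1.01 on the log2 scale in ZC3H7B-OE (SE 0.16, adjusted p = 2.58e-06) and by 1.33 in control (SE 0.16, adjusted p = 2.01e-08). Without replicate 3 of control at 0 h the change in control was -0.99. CCND3 fell by 0.74 in ZC3H7B-OE (SE 0.15, adjusted p = 9.25e-05) and by 0.47 in control (SE 0.16, adjusted p = 0.00981). CCNE2 rose 3.31-fold in ZC3H7B-OE (log2 1.73, SE 0.25, adjusted p = 1.79e-06) and 2.55-fold in control (log2 1.35, SE 0.24, adjusted p = 2.81e-05), or 3.84-fold in control without replicate 3 at 0 h. The cyclin E2 mRNA thus climbed while cyclin D3 and CDK4 mRNA declined.

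CCND1 fell by 1.52 in ZC3H7B-OE (SE 0.33, adjusted p = 0.000153), and its log2 change in control was -0.22 (SE 0.30, adjusted p = 0.553). CDK6 rose by 1.02 in ZC3H7B-OE (SE 0.15, adjusted p = 6.23e-07), and its change in control was 0.25 (SE 0.15, adjusted p = 0.141), or 0.32 without replicate 3 at 0 h (adjusted p = 0.0452). The test of whether the line difference itself changed over the chase called none of the 8 genes, beside 1.73% of all entries (174; 1844 at an unadjusted p under 0.05). Its adjusted p was 0.218 for CCND1 and 0.109 for CDK6. For CDK6 it was 0.0413 without replicate 1 of control at 0 h, 0.0333 without replicate 3 of control at 0 h, and 0.0184 with DESeq2. CCNE1 rose by 0.63 in control (SE 0.26, adjusted p = 0.0335), with a change of -0.19 in ZC3H7B-OE (SE 0.25, adjusted p = 0.521). Without replicate 3 of control at 0 h the change in control was 0.94 (adjusted p = 0.00177). The call in control was lost in 12 of the 24 fits that leave out 1 library, with adjusted p up to 0.191: without control replicates 1 or 2 at 0 h, 2 or 3 at 2 h, 2 at 4 h, or 1 or 3 at 6 h, and without ZC3H7B-OE replicates 1 or 2 at 2 h, 2 at 4 h, or 1 or 2 at 6 h. CDKN2C did not pass in ZC3H7B-OE (-0.26, adjusted p = 0.372) or in control (-0.15, adjusted p = 0.629).

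The CDKN1B mRNA is a known target of Pumilio proteins, which bind UGUANAUA (with T for U in the transcript), and of miR-221 and miR-222, so its 3' UTR was searched for these letters on the mRNA strand. The sequences below are those of the CDKN1B transcript and the miRNAs that the search used, with capitals for the miRNA seed (bases 2 to 8), its match ATGTAGC, or the Pumilio letters. The transcript is from GENCODE v29 and its positions are on GRCh38, whereas the submitters' reads were processed on GRCh37. The miRNA sequences are from RefSeq (GRCh38.p14).
hsa-miR-221-3p: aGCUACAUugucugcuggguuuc
hsa-miR-222-3p: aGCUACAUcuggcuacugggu
miR-221 match 1, chr12:12721218-12721244, plus strand: aaagcgttggATGTAGCattatgcaat
Pumilio letters 1, chr12:12721270-12721297, plus strand: gtactacctgTGTATATAgtttttacct
miR-221 match 2, chr12:12721291-12721317, plus strand: tttaccttttATGTAGCacataaactt
Pumilio letters 2, chr12:12722086-12722113, plus strand: agtgtacctgTGTACATAactctgtaaa

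The miRNAs share one seed, and its match occurs 2 times in the 3' UTR of 1344 nt, as do the Pumilio letters. The first Pumilio letters lie between the miR-221 matches, and none of the 4 capitalised runs overlaps another. Of 8170 genes with a transcript, 1.08% held at least 2 miR-221 matches and 10.7% at least 2 copies of the Pumilio letters. Among the 1301 genes whose 3' UTR was 0.8 to 1.25 times as long as that of CDKN1B the shares were 0.384% and 6.92%. Of the other genes described here, CCNE2 also held 2 copies of the Pumilio letters, CCND2 held 1, and CDKN1C, CCND2 and CDK6 held 1 miR-221 match each. These are matches of letters. Binding was not measured, and their part in the loss of label was not tested.

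CDKN1B lost nearly all its label within the chase. The labelled share of its reads was 64.4%, 77.4% and 77.3% at 0 h in ZC3H7B-OE and 80.8%, 67.4% and 75.7% in control. At 2 h it was 48.6%, 51.4% and 64.9% in ZC3H7B-OE and 63.3%, 67.1% and 34.0% in control. At 4 h it was 24.7%, 28.3% and 22.9% in ZC3H7B-OE and 14.4%, 7.02% and 14.3% in control. CDKN1B was chosen for fast label loss in these same libraries, so the order of the lines is given only as a description. How many of all entries were ordered in this way was not counted. At 4 h every ZC3H7B-OE library was above every control library, and the same held at 6 h. There the shares were 3.57%, 4.49% and 6.67% in ZC3H7B-OE (2 of 56, 4 of 89 and 4 of 60 reads) and 2.82%, 2.17% and 1.79% in control (2 of 71, 1 of 46 and 1 of 56 reads). With so few labelled reads, the exact 95% interval of the highest of these 6 shares ran from 1.85% to 16.2% and that of the lowest from 0.0452% to 9.55%, so the intervals of the lines overlapped at 6 h. Over the same times the labelled share of all reads of a library averaged 74.8%, 71.8%, 45.5% and 29.6% in ZC3H7B-OE and 76.7%, 75.7%, 47.7% and 29.9% in control.

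**Figure D3:**
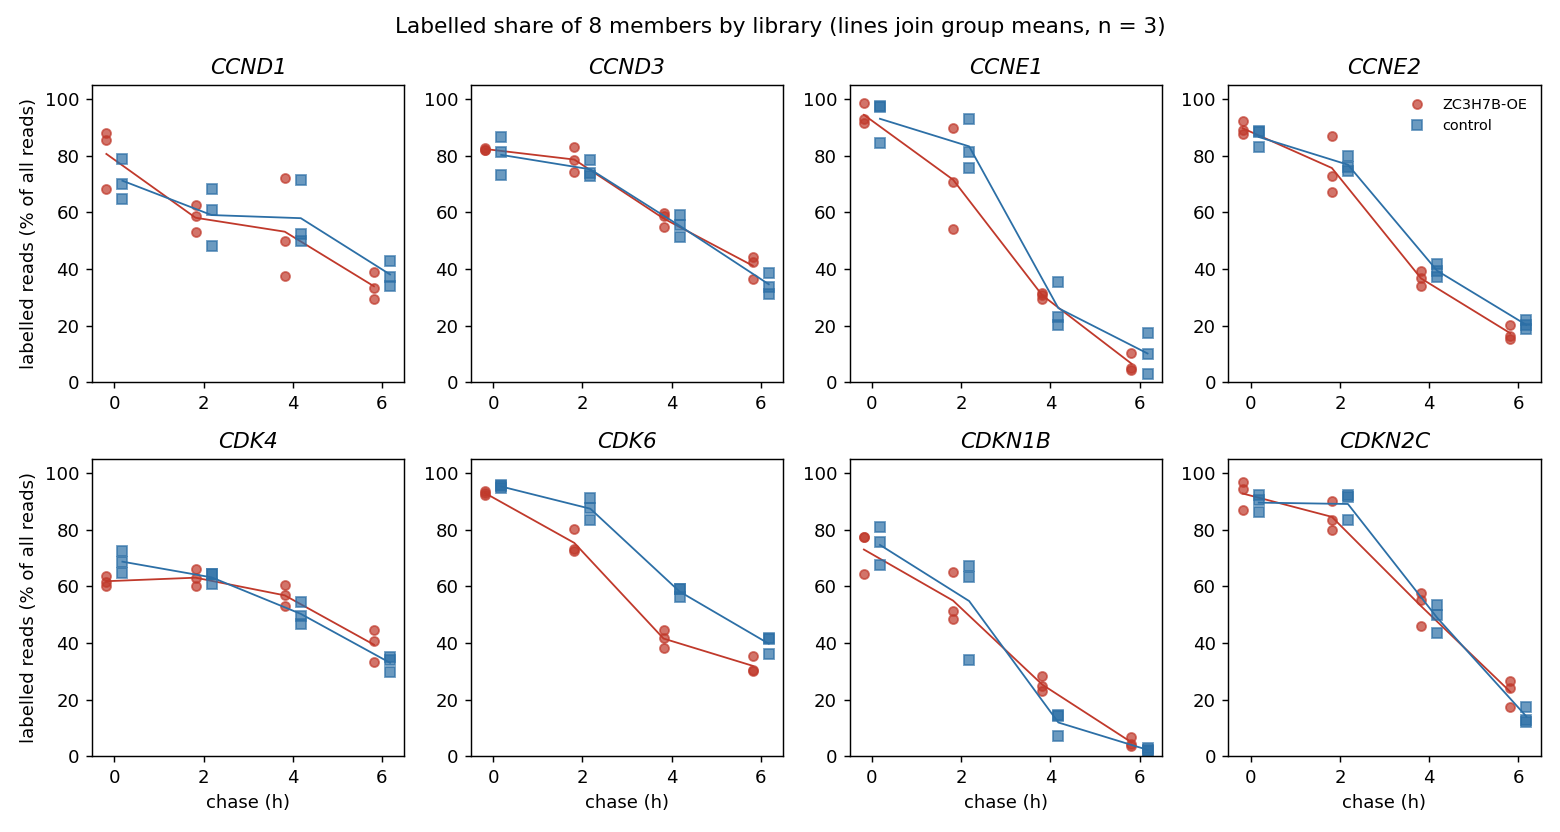
Labelled reads as a percentage of all reads of each gene (axes from 0) against hours of chase, with each point 1 library and lines through the means of 3. At 6 h CDKN1B is lowest on average, at 1.79% to 6.67%, and CCND1, CCND3, CDK4 and CDK6 keep 29.4% to 44.5%.

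Fitted as a straight line through 4 times, labelled reads of CDKN1B fell by 0.76 log2 units per h in ZC3H7B-OE (SE 0.09) and by 0.99 in control (SE 0.10). These slopes correspond to half-lives of 1.31 h in ZC3H7B-OE and 1.01 h in control. The fall is measured against the whole library, so a change in the total amount of mRNA would also move these values. Whole libraries kept most of their label until 2 h, and over 2 to 6 h alone the slope of CDKN1B was -1.01 in ZC3H7B-OE and -1.40 in control. Among 8713 entries its slope over 0 to 6 h ranked 26 in ZC3H7B-OE and 5 in control, counted from the steepest. Among the 3193 entries with at least 50 labelled reads in every control library at 0 h it ranked 3 in control. Just ahead of it there were CHAC1, an enzyme of glutathione breakdown, with a half-life of 0.968 h in control, and ID3, an inhibitor of helix-loop-helix factors, with 1.01 h. Just behind it were the zinc finger gene ZNF627 (1.13 h), the death receptor adaptor FADD (1.14 h) and the Notch target HES1 (1.16 h). In ZC3H7B-OE those 5 had half-lives of 1.00, 1.17, 1.25, 1.24 and 1.14 h in the same order. Their labelled shares at 6 h, pooled over the libraries of a line, were 45.7%, 6.85%, 10.6%, 19.3% and 2.39% in ZC3H7B-OE. In control they were 21.6%, 6.71%, 7.80%, 9.51% and 5.76%. A steep slope of labelled reads thus did not always go with a low labelled share.

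The other genes spread widely around the median of all entries, which was a slope of -0.24 per h in ZC3H7B-OE, a half-life of 4.10 h, and -0.26 in control, a half-life of 3.79 h. CCNE1 came next to CDKN1B in ZC3H7B-OE, with a slope of -0.63 and a half-life of 1.58 h in ZC3H7B-OE and a slope of -0.45 and a half-life of 2.22 h in control. Slopes in ZC3H7B-OE were -0.38 for CDKN2C, -0.28 for CDK4 and -0.29 for CCND3, and in control -0.46, -0.40 and -0.29 in the same order. CCND1 had a slope of -0.45 and a half-life of 2.22 h in ZC3H7B-OE (SE of the slope 0.07), and a slope of -0.19 and a half-life of 5.16 h in control (SE 0.06). Over 2 to 6 h alone its slopes were closer, at -0.29 and a half-life of 3.44 h in ZC3H7B-OE and -0.23 and a half-life of 4.40 h in control. CDK6 and CCNE2 had slopes of -0.11 and -0.14 in ZC3H7B-OE and -0.17 and -0.12 in control, flatter than the median of all entries. Over 2 to 6 h alone CDK6 had -0.21 in ZC3H7B-OE and -0.34 in control, and CCNE2 -0.31 in ZC3H7B-OE and -0.13 in control. The median of all entries is for 0 to 6 h and was not taken over 2 to 6 h. Labelled reads of CDK6 were at 86.9, 63.3 and 75.1 CPM at 0 h and 89.5, 95.3 and 97.7 CPM at 2 h in ZC3H7B-OE, and at 146, 184 and 186 CPM at 0 h and 244, 214 and 203 CPM at 2 h in control. Labelled CPM of CDK6 were thus higher at 2 h than at 0 h in both lines, after the pulse had ended. Since all reads of CCNE2 rose over the chase while its labelled share dropped to 17.3% ± 2.71 in ZC3H7B-OE and 20.3% ± 1.69 in control at 6 h (SD, n = 3), its labelled reads and its total moved apart.

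**Figure D4:**
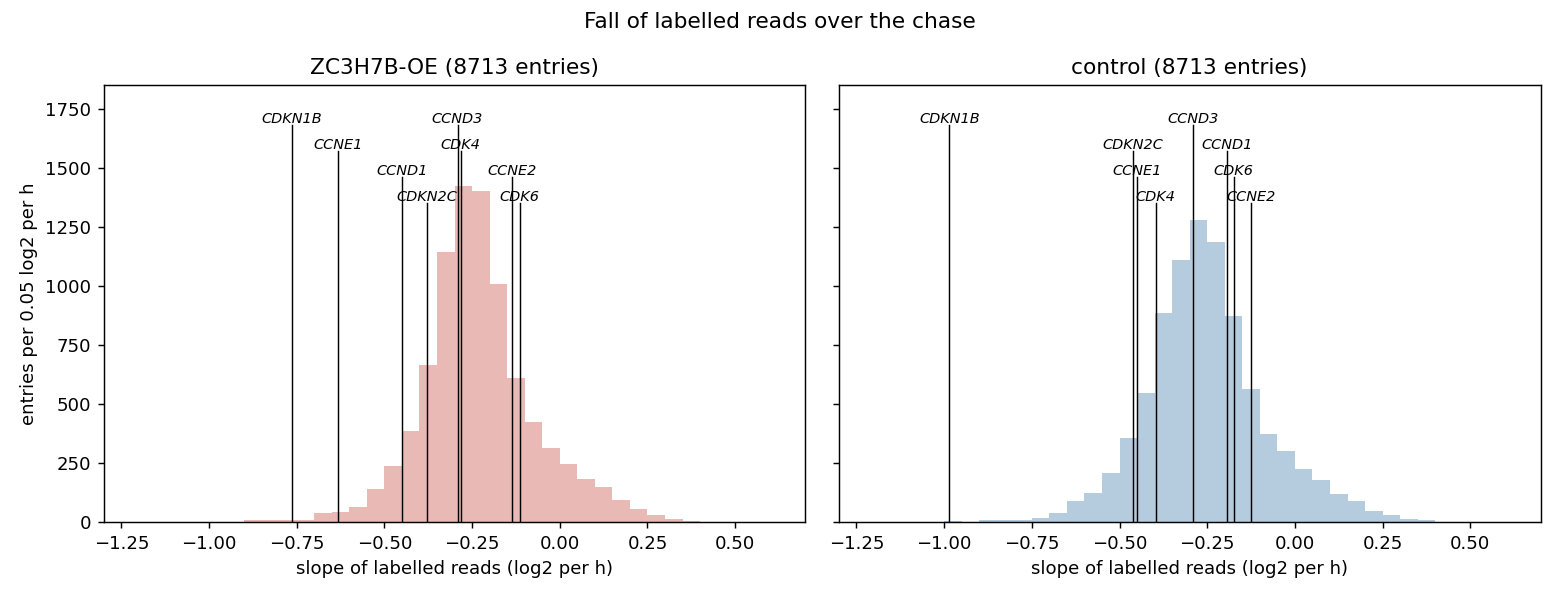
Slopes of labelled reads over the chase (log2 per h) of 8713 entries in ZC3H7B-OE (left) and control (right), with entries counted per 0.05 and a vertical line for each of the 8 genes (line heights carry no value). CDKN1B lies at the far left in both lines, at -0.76 in ZC3H7B-OE and -0.99 in control, while CCNE2 and CDK6 lie right of the centre over this whole interval.

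The difference in slope between the lines passed the test for none of the 8713 entries (0%, with 479 at an unadjusted p under 0.05), hence for none of these genes. It was -0.26 per h for CCND1 (SE 0.09, adjusted p = 0.807), -0.18 for CCNE1 (SE 0.11, adjusted p = 0.938) and 0.11 for CDK4 (SE 0.05, adjusted p = 0.838). For CDK6 it was 0.061 (SE 0.064). For CDKN1B it was 0.22 (SE 0.14), given without a test. Over 2 to 6 h alone the difference was -0.064 for CCND1, -0.099 for CCNE1, 0.0023 for CDK4, 0.13 for CDK6 and -0.18 for CCNE2. None of the tested genes was called there. A p that misses the threshold here does not show that the lines lost label alike.

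The odds that a read was labelled were compared between the lines at 4 and 6 h together. They were not set against the odds at 0 h. Among 9639 entries tested 11.6% were called, 3.8% higher and 7.83% lower in ZC3H7B-OE. Of 7 genes tested 1 was higher and 1 was lower. CDK6 was lower: its labelled share at 4 h was 44.7%, 41.7% and 38.3% in ZC3H7B-OE and 59.1%, 59.2% and 56.2% in control, and at 6 h 29.9%, 30.4% and 35.4% in ZC3H7B-OE and 36.0%, 41.7% and 41.5% in control. At 4 h the lowest share in ZC3H7B-OE had an exact 95% interval of 33.4% to 43.5%, and the lowest in control 52.3% to 60.0%. The groups did not overlap at either time, and the log2 odds ratio was -0.73 (SE 0.14, adjusted p = 4.30e-05), beside a median of -0.08 over all entries. At 6 h alone it was not called (adjusted p = 0.124). The labelled share of CDK6 was lower in ZC3H7B-OE already at 0 h, at 92.9% ± 0.69 against 95.3% ± 0.60 in control (SD, n = 3). At 2 h it was 75.4% ± 4.41 in ZC3H7B-OE and 87.4% ± 3.91 in control. The odds at 4 and 6 h therefore do not measure loss of label over the chase alone. CDK4 was higher by 0.39 (SE 0.14, adjusted p = 0.0433), with shares of 57.1%, 60.5% and 53.0% at 4 h in ZC3H7B-OE and 54.6%, 46.8% and 49.5% in control. At 6 h its shares were 33.2%, 40.5% and 44.5% in ZC3H7B-OE and 34.0%, 35.2% and 29.8% in control, and the groups overlapped at both times. At 0 h the share of CDK4 was instead lower in ZC3H7B-OE, at 61.8% ± 1.81 against 68.7% ± 3.82 in control (SD, n = 3), without overlap. The line difference in the share of CDK4 thus changed direction along the chase. Its call was lost in 8 of 24 fits without 1 library, with adjusted p from 0.0587 to 0.174: without ZC3H7B-OE replicates 1 or 2 at 4 h or 2 or 3 at 6 h, and without control replicates 2 or 3 at 4 h or 1 or 3 at 6 h. For CDKN1B the log2 odds ratio was 1.16 (SE 0.52), given without a test. CCND1 (-0.22), CCND3 (0.28), CCNE1 (-0.17), CCNE2 (-0.22) and CDKN2C (0.54) did not pass.

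The transcripts of the 10 genes differed in coding composition, which the series' title names as its concern. The share of codons ending in G or C was 69.2% in CDKN1B, against a median of 59.0% over the 8170 genes. Among the genes lower in ZC3H7B-OE it was 87.8% in CCND1, 58.9% in CDK6 and 36.9% in CCNE2, which takes in both the highest and the lowest of the 10 genes. Those that did not pass lay between 53.8% in CDK4 and 78.1% in CCND3. The 3' UTR was 10219 nt in CDK6 and 3192 nt in CCND1, against a median of 1306 nt, and 363 nt in CDKN2C.

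The entries whose level over the 24 libraries was most like that of CDKN1B were SNRPD3, a core protein of spliceosomal particles (Pearson r = 0.918 on log2 CPM), GMDS, an enzyme of GDP-fucose synthesis (0.912), SENP3, a SUMO protease (0.911), TCTA (0.910) and NIPSNAP1, a mitochondrial protein (0.904). They were picked from 7028 entries, and the libraries share the course of the chase, over which all 5 had lower means at 6 h than at 0 h in both lines. SNRPD3, for example, averaged 175 CPM at 6 h and 330 CPM at 0 h in ZC3H7B-OE, and 152 CPM at 6 h and 403 CPM at 0 h in control. Within the 8 genes, CDK4 (0.858) and CCND3 (0.715) were most like CDKN1B, and CCNE2 (-0.563) least.

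Genes around this core were counted in 5 lists by the line difference over 4 times, beside the 20.4% higher and 25.4% lower of all entries. Of 22 genes of the RB and E2F machinery 3 were higher and 8 lower, with a median log2 difference of -0.14. TFDP1, the partner of E2F factors, averaged 363 ± 118 CPM in ZC3H7B-OE and 567 ± 142 CPM in control (SD, n = 12), and differed by -0.67. The RB relative RBL2 differed by -0.82 and LIN54, the DNA-binding part of the DREAM complex, by -0.51, whereas MYBL2, an activator of cell cycle genes, was higher by 0.60. RB1 itself, named here after its value was seen, was lower by 1.85 (SE 0.32, adjusted p = 1.46e-05). Of 20 E2F-driven S phase genes 3 were higher and 8 lower (median -0.19). Genes of nucleotide synthesis were among the lower ones: RRM2 averaged 84.0 ± 18.9 CPM in ZC3H7B-OE and 208 ± 47.5 CPM in control (-1.31), and TYMS differed by -0.53. MCM6, of the replicative helicase, differed by -0.52.

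**Figure D5:**
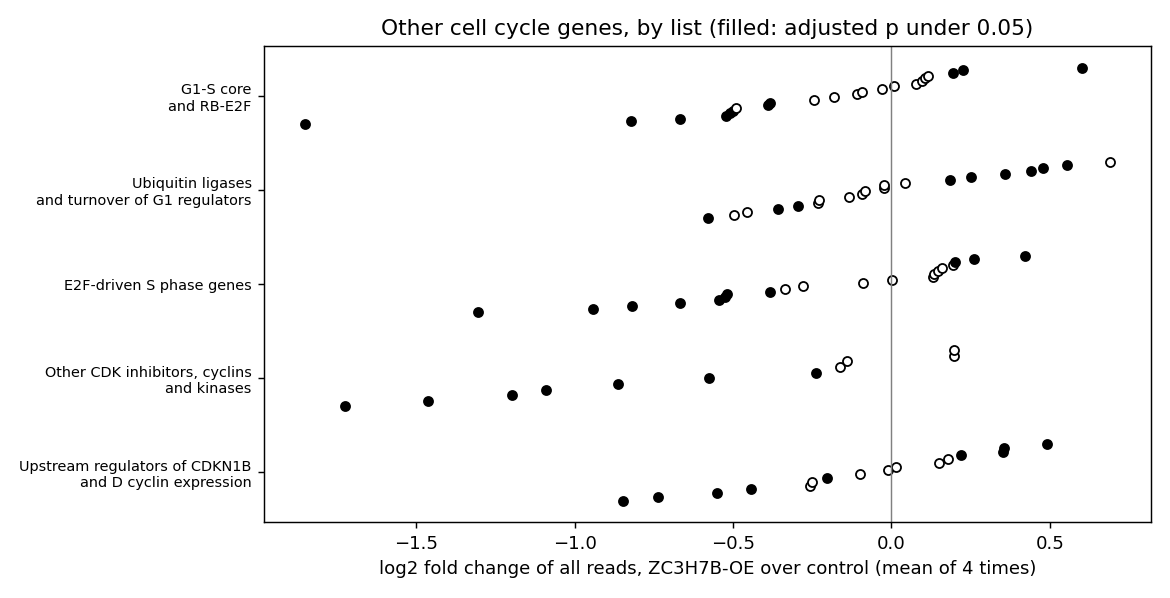
Log2 fold change of all reads, ZC3H7B-OE over control, for the tested genes of 5 lists, with each point 1 gene, sorted within its list, and filled where the adjusted p is under 0.05. In the list of other CDK inhibitors, cyclins and kinases 7 of 11 genes were lower and none was higher.

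Of 11 other CDK inhibitors, cyclins and kinases 7 were lower and 0 higher (median -0.58). CDKN1A, the inhibitor p21, averaged 125 ± 50.4 CPM in ZC3H7B-OE and 301 ± 157 CPM in control and differed by -1.20 (SE 0.08, adjusted p = 2.11e-13). The p53 target CCNG1 differed by -1.09, the INK4 inhibitor CDKN2B by -0.58 and CCNC, the cyclin of the Mediator kinase module, by -0.86. Of 20 genes of ubiquitin ligases and turnover of G1 regulators 6 were higher and 3 lower (median -0.05). FBXO31 and AMBRA1, ligase receptors that direct cyclin D destruction, were higher by 0.55 and 0.48. CUL4B, a ligase scaffold, was lower by 0.58 and GSK3B, a kinase that marks cyclin D1 for destruction, by 0.30. Of 16 upstream regulators of CDKN1B and D cyclin expression 4 were higher and 5 lower (median -0.06). JUN, an activator of CCND1, differed by -0.55, and UHMK1, a kinase of the CDKN1B protein, by -0.44, while AKT2 was higher by 0.49.

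Over the 5 lists together 53.4% of 88 genes rose and 20.5% fell between 0 and 6 h in ZC3H7B-OE, beside 32.8% and 30.6% of all entries, and 50% rose and 21.6% fell in control, beside 30.7% and 29.9%. In the RB and E2F list 15 of 22 rose and 4 fell in ZC3H7B-OE (median 1.79), and 14 rose and 3 fell in control (median 1.31). The medians over all entries were -0.08 in ZC3H7B-OE and -0.05 in control. In the list of E2F-driven genes 10 of 20 rose and 4 fell in ZC3H7B-OE, and 7 rose and 4 fell in control, with medians of 0.47 in ZC3H7B-OE and 0.08 in control. Of the 20 ubiquitin ligase and turnover genes 10 rose and 3 fell in ZC3H7B-OE, and 9 rose and 4 fell in control. Of the 11 other CDK inhibitors, cyclins and kinases 5 rose and 2 fell in ZC3H7B-OE, and 5 rose and 3 fell in control. Of the 16 upstream regulators 8 rose and 5 fell in ZC3H7B-OE, and 10 rose and 5 fell in control. By the odds of a read being labelled at 4 and 6 h the lists lay near the background, with 12.6% of 87 genes called (1.15% higher and 11.5% lower) beside 11.6% of all entries (3.8% and 7.83%). The counts were 0 higher and 3 lower of 22 in the RB and E2F list, 0 and 3 of 20 in the E2F-driven list, 0 and 1 of 19 among ligases and turnover genes, 0 and 1 of 11 among other CDK inhibitors, cyclins and kinases, and 1 and 2 of 16 among upstream regulators.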

How the data were processed

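The authors deposited 2 tables of raw read counts per gene, of all reads and of reads with T>C conversions, over the same 19692 entries, of which 450 name several genes and held 2.30% to 3.69% of a library's reads. The submitters' processing notes name fastp and GRCh37. How reads were aligned, how many conversions make a read labelled, over which part of a gene it was counted and whether strand was used is not given in the sources used here. Reads of overlapping or antisense genes may therefore be mixed.

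Tests of all reads used edgeR 4.0.16 (R 4.3.3): filterByExpr (minimum count 10), TMM, robust quasi-likelihood fits with a mean for each of the 8 groups, and Benjamini-Hochberg adjustment over all entries with a threshold of 0.05. Contrasts were ZC3H7B-OE against control over 4 times, its change along the chase (F test), and 6 h against 0 h in each line. Labelled reads were fitted with a slope per line, scaled by the all-read libraries. Labelled and unlabelled reads were fitted together for the odds. A half-life is 1 h over the size of the slope. Intervals of shares are exact (Clopper-Pearson, 95%) and cover counting error only, since PCR copies cannot be told from separate molecules. No replicates were duplicates: chi-square per degree of freedom ran from 2.28 to 30.4. The fits were also run on simulated counts, and the outcome is not given here. Simulated label fell at a constant rate from 0 h, whereas whole libraries kept most of their label until 2 h.

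The genes, lists and tests were chosen with earlier results of these data known. The rule named the 10 genes, ZC3H7B, up to 4 genes of each list with the smallest adjusted p, the 5 entries most correlated with CDKN1B (mean CPM of at least 10, log2 of CPM + 0.5) and the 5 nearest to it in slope. Some genes the rule named are not reported here. Alternatives were limma-voom 3.58.1, DESeq2 1.42.0, other scaling and filtering, single times, a replicate block and leaving out each library.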

Additional observations from a re-analysis of the deposited data

How the results depend on the processing

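Of 44 tested results of the 8 genes, 14 were called, and none of these changed direction in any alternative run. Over 1334 values in alternatives, 56 reversed, all of uncalled results. These totals take in the F tests of the change of the line difference along the chase, which have no direction and so could not reverse. The line difference of all reads (4596 entries called) gave 950 at 2 h alone, 1776 at 4 h alone, 1583 at 6 h alone and 4353 to 4900 without 1 library. CCND1 was not called at 0 h alone (-0.08), CCNE2 at 2 h alone (-0.55) or CDK6 at 6 h alone (-0.39). Single times are contrasts of the same fit to all libraries. The SE of CCND1 was 0.31 at 0 h and 0.34 at 2 h, where it was called. The change of the line difference along the chase (174) was the least stable count, with 942 without the filter on low counts, 66 with limma-voom, 748 with DESeq2 and 48 to 709 without 1 library; it passed 1.5 times the count without control replicates 1 (703), 2 (709) or 3 (386) at 0 h and fell below it without ZC3H7B-OE replicates 1 (62), 2 (79) or 3 (48) at 0 h, 3 at 4 h (109) or 3 at 6 h (110), or control replicates 1 at 4 h (109), 1 at 6 h (115) or 3 at 6 h (95). The chase gave 5884 to 6834 in ZC3H7B-OE and 5607 to 6189 in control without 1 library, and the slope difference 0 to 1, with 2 on labelled-read scaling and 63 over 2 to 6 h. The odds (1121) gave 348 at 4 h alone, 630 at 6 h alone and 898 to 1252 without 1 library; CDK4 was not called without the filter (adjusted p = 0.0546), at 4 h alone (0.359) or at 6 h alone (0.252). The causes were not tested.

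Some reversed values exceeded the main estimate in size. For the line difference reversed values were -0.093, -0.030 and -0.027 for CDKN1B at 0, 2 and 4 h alone and -0.050 with 6 h left out; -0.093 for CDKN2C at 6 h alone; 0.31 for CCNE1 at 0 h alone; and -0.34 and -0.018 for CDK4 at 0 and 6 h alone, with -0.069 and -0.035 when 2 or 4 h was left out. For CCND3 the slope difference over 2 to 6 h was 0.041, and for CCNE1 the odds at 4 h alone were 0.35. Over 2 to 6 h the slope difference of CDKN1B was 0.39. Without 1 library the line difference ran from -0.065 to 0.10 for CDKN1B and from -0.034 to 0.089 for CDK4, the chase in ZC3H7B-OE from -0.42 to 0.066 for CCNE1, the slope difference from -0.011 to 0.015 for CCND3 and from -0.091 to 0.024 for CCNE2, and the odds from -0.41 to 0.15 for CCNE1. Leaving out 6 h called CDKN2C higher (0.39, adjusted p = 0.0392), as did leaving out ZC3H7B-OE replicate 3 at 0 h (adjusted p = 0.0485), and CCNE1 lower with 0 h left out (-0.40, adjusted p = 0.0361).

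Between the lines at the same time, replicate numbers showed no clear pairing. Deviations of same-numbered libraries correlated from -0.10 to 0.21, with 1 of 12 pairs over 0.1. Of 12 ZC3H7B-OE libraries, 3 were most like their own number. Sharing across times within a line was not checked, so pairing is not excluded. With the replicate block the counts were 4541 for the line difference, 132 for its change along the chase, 6330 and 6004 for the chase in ZC3H7B-OE and control, 0 for the slope difference and 1089 for the odds. Depth limits CDKN1B at 6 h, CCND1, CDKN2C and CCNE1, at 15 to 149 reads per library for all reads there, and leaves CDKN1C and CCND2 untested.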
